A study of Arabidopsis thaliana with 12 samples.

Results

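The roots of 2 natural ecotypes of Arabidopsis thaliana, Or-1 and Rak-2, were compared with each other under NO3- nutrition, with 3 libraries of each ecotype, 6 of the 12 libraries of the series. Or-1 was described by the study as tolerant to NH4+ and Rak-2 as sensitive. The plants of both ecotypes had been on NO3- solution for 5 d, and RNA was taken from the roots after 1 d on 1 mM Ca(NO3)2. The methods of the study add a period without nitrogen between these steps, which the sample descriptions do not name. The labels name no introduced allele, the groups differ by ecotype, and each difference holds for these 2 ecotypes alone. The remaining 6 libraries, of the same ecotypes after 1 d on 1 mM (NH4)2SO4, were used to estimate the spread and to see whether a difference recurred on the other nitrogen source. Roots take up NO3- and NH4+ through separate families of transporters, reduce NO3- to NH4+ with electrons partly supplied by the oxidative pentose phosphate pathway, and assimilate NH4+ into glutamine and asparagine. Roots of this species also make sulfur-rich and indolic defence compounds, glucosinolates and camalexin, and acquire iron and phosphate through inducible systems, and natural ecotypes carry different sets of immune receptor genes.

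Each library held from 16005610 to 22388738 counts. Levels are given as normalized CPM, the counts of a gene relative to its library's total after scaling by edgeR's TMM method, in the order replicate 1, 2 and 3. Of 26568 listed genes, 19327 passed the filter on low counts and were tested with edgeR's quasi-likelihood test. A call needed a Benjamini-Hochberg adjusted p (FDR) under 0.05 together with a log2 fold change beyond 1 in either direction. Fold changes are Or-1 over Rak-2, with the standard error (SE). Under NO3-, the Rak-2 libraries were more dispersed than those of Or-1, their biological coefficient of variation being 0.343 and that of Or-1 0.241. Under NH4+ it was lower in both ecotypes, 0.158 in Rak-2 and 0.223 in Or-1. The numbers of the replicates are the names given in the labels. The p-values rest on the spread within the groups of all 12 libraries, and not on these 3 plus 3 libraries alone. In bulk roots, fewer cells of a type and less RNA per cell cannot be told apart.

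Under NO3-, 1670 genes were called, 841 higher and 829 lower in Or-1, which is 8.64% of the genes tested (4.35% higher and 4.29% lower). The median log2 fold change of all genes was -0.02. The size of the log2 fold change had a median of 2.00 over the calls and was beyond 5 in 312 of them. In 1631 of the 1670 the libraries of the ecotypes did not overlap, while this was so in 26.2% of all genes tested. A subset of 1014 genes (5.25% of those tested), 496 higher and 518 lower, was also called with the NO3- libraries alone (where 6.24% of genes were called) and after leaving out any one of these 6 libraries, and did not overlap. These are called robust below. The genes without a call lay along the diagonal of the plot of mean levels, and the called genes on its axes were those without counts in one ecotype.

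**Figure D1:**
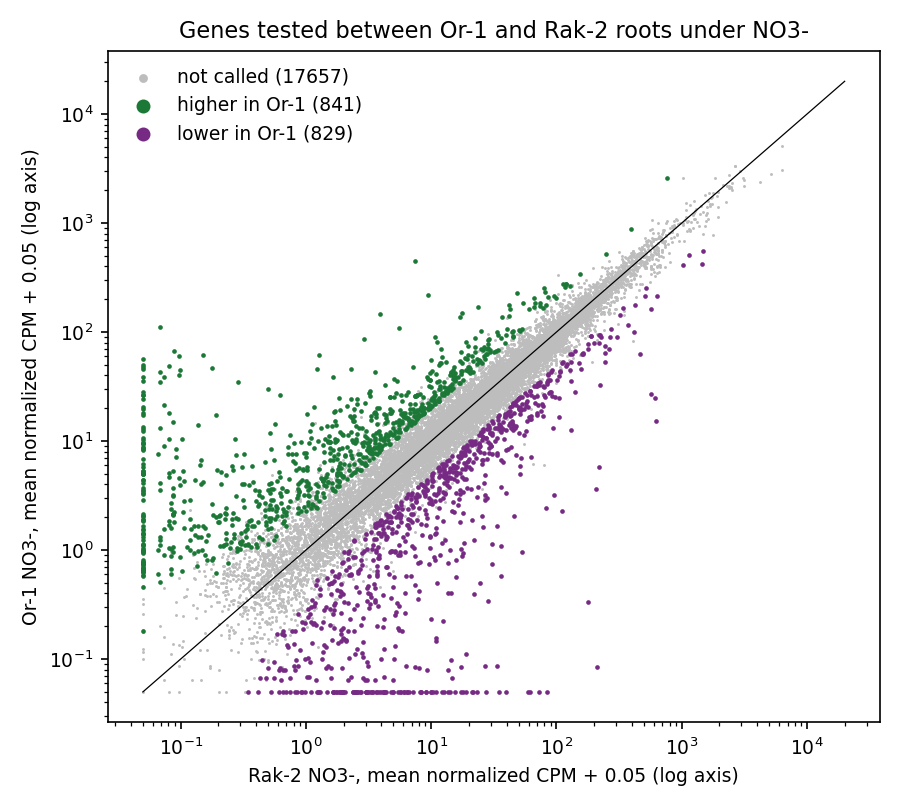
Mean normalized CPM of the 19327 genes tested, in Rak-2 (horizontal) and Or-1 (vertical) under NO3-, both on log axes after adding 0.05, with the 841 genes called higher in Or-1 in green and the 829 called lower in purple. Both directions held similar numbers, and the columns of points at the left and bottom edges are genes without any count in one ecotype.

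The genes with the largest differences were read in one ecotype and nearly unread in the other. CYP705A8, a cytochrome P450, had 62.1, 52.4 and 55.4 CPM in Or-1 and no count in the 3 Rak-2 libraries, at least 271-fold higher when Rak-2 is set at 3 counts in its smallest scaled library. CYP705A13 of the same subfamily had 35.4, 41.7 and 39.1 CPM in Or-1 and again no count in Rak-2, at least 185-fold higher. WAKL2, a wall-associated kinase-like gene, had 22.3, 20.2 and 18.9 CPM against none, at least 97.8-fold higher. SYP41, a syntaxin of the trans-Golgi network, had 30.5, 34.3 and 40.3 CPM in Or-1 and 0, 0 and 0.0547 CPM in Rak-2, at least 168-fold higher. UPI, a serine protease inhibitor of the potato type, was at least 101-fold higher, and FDM2, a factor of RNA-directed DNA methylation, at least 25.2-fold higher. In all of these the lowest Or-1 library lay far above the highest Rak-2 library.

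ADR1-L3, an immune receptor of the ADR1 family, had 62.1, 59.5 and 63.2 CPM in Or-1 and only 1, 5 and 0 counts in Rak-2 (FDR = 8.73e-08, edgeR). In others the lower ecotype still gave a measurable level. ACL, annotated as an acetone-cyanohydrin lyase, had 43.8, 65.5 and 74.1 against 0.907, 1.13 and 1.64 CPM. HSD3, a hydroxysteroid dehydrogenase, had 119, 155 and 161 against 3.56, 4.79 and 3.23 CPM (log2 fold change 5.22, SE 0.19, FDR = 5.14e-08, edgeR). The replicates of each ecotype were close to each other beside this gap.

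Other genes were read in Rak-2 and nearly unread in Or-1. GLR2.2, a glutamate receptor-like channel, had no count in Or-1 and 7.6, 18.8 and 10.3 CPM in Rak-2, at least 73.9-fold lower in Or-1. The carboxypeptidase-like gene scpl33 had no count in Or-1 either and was at least 59.7-fold lower, OFP9, a transcription repressor, at least 37.9-fold lower, and SRS8, of the SHI-related family, at least 66.3-fold lower. AGL62, a MADS-box gene best known from the endosperm, had 0.662, 0.851 and 0.618 CPM in Or-1 and 16.0, 11.3 and 13.8 in Rak-2. GDU5, of the glutamine dumper family that promotes amino acid export, had a mean of 0.371 ± 0.182 CPM (SD, n = 3) in Or-1 against 7.89 ± 4.77 in Rak-2, and RPF2, which processes mitochondrial transcripts, 0.426 ± 0.130 against 7.43 ± 0.662. RPL27, an organellar ribosomal protein, had 1.59 ± 0.223 against 25.8 ± 2.34 CPM, and ALDH11A3, a glyceraldehyde-3-phosphate dehydrogenase, 0.525 ± 0.195 against 6.81 ± 5.69. The Rak-2 libraries of ALDH11A3 alone ranged from 2.09 to 13.1 CPM.

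Across all called genes, 168 of those higher in Or-1 had at most 3 counts in every Rak-2 NO3- library, and 171 of those lower in Or-1 had at most 3 counts in every Or-1 NO3- library. In 132 of the former and 144 of the latter the same limit also held in the 3 NH4+ libraries of that ecotype. The other ecotype reached more than 10 CPM in 34 and 29 of them. Genes newly assembled by the authors made up 53 and 41 of these sets. Of the 444 newly assembled genes tested, 148 were called (33.3%), 83 higher and 65 lower, against 8.06% of the 18883 other genes. The libraries they were assembled from are not given in the sources used here. Those at the limit in either ecotype could pass the filter on low counts through the other alone. The 8.06% is thus no matched reference, and how far the way the set arose raised its share was not tested. Whether a gene at the limit is absent from an ecotype, differs in sequence from the reference or is not transcribed cannot be told apart from counts.

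UBQ11, a polyubiquitin gene, was among the genes with the greatest loss of CPM in Or-1. It had 16.6, 13.1 and 15.7 CPM in Or-1 and 670.0, 604 and 593 CPM in Rak-2 (log2 fold change -5.36, SE 0.17, FDR = 4.33e-08, edgeR). UBC8, a ubiquitin-conjugating enzyme, had 5.29, 5.58 and 6.22 against 155, 157 and 346 CPM. Both belong to families of near-identical genes between which reads can be divided, so their values for single genes are uncertain. AT5G45510, annotated as a leucine-rich repeat protein, had 23.8, 28.3 and 22.9 CPM in Or-1 and 717, 712 and 405 in Rak-2. AT3G03270, annotated as an adenine nucleotide alpha hydrolase-like protein, had a mean of 27.1 ± 13.5 against 566 ± 484 CPM, and Rak-2 replicate 1 alone stood at 1124.

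In the other direction, AT4G33720, of the CAP family of secreted proteins, had 1518, 3621 and 2559 CPM in Or-1 and 543, 816 and 924 in Rak-2 (log2 fold change 1.75, SE 0.38, FDR = 0.00888, edgeR). A newly assembled gene had 437, 422 and 489 against 7.46, 7.51 and 7.16 CPM. AT5G26290, a TRAF-like gene, had a mean of 217 ± 62.0 against 9.38 ± 4.61 CPM, AT5G04750, an F1F0-ATPase inhibitor protein, 231 ± 14.0 against 48.5 ± 3.25, and AT3G05560, a ribosomal L22e protein, 252 ± 34.96 against 79.8 ± 5.39. P5CR, which catalyses the last step of proline synthesis, had 361, 353 and 312 CPM in Or-1 and 169, 138 and 152 in Rak-2 (log2 fold change 1.16, SE 0.13, FDR = 9.53e-05, edgeR). These 6 are the robust genes with the greatest gain of CPM in Or-1.

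**Figure D2:**
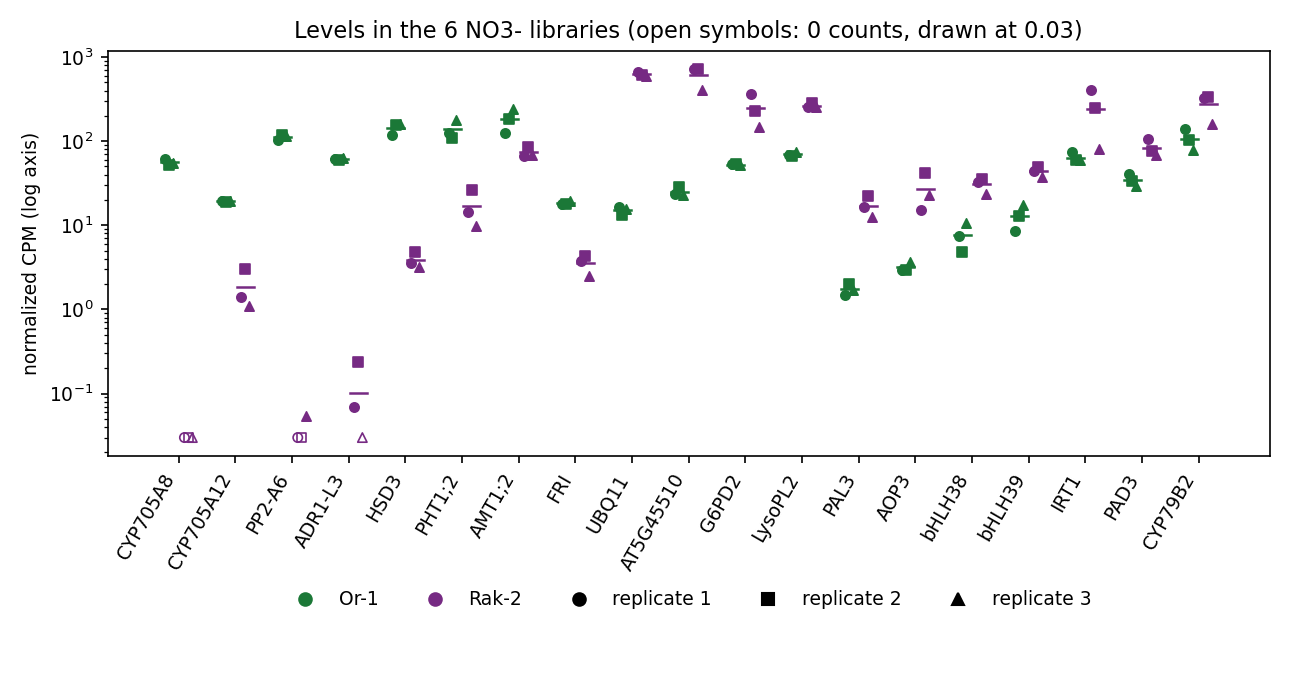
Normalized CPM on a log axis of 19 of the named genes in each of the 6 NO3- libraries, Or-1 in green and Rak-2 in purple, with circle, square and triangle for replicates 1, 2 and 3 and a bar at the mean. The libraries of the ecotypes do not overlap in any of these genes, and IRT1 and G6PD2 show the wide spread of the Rak-2 libraries.

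Some called genes lay next to each other. Genes were taken in the annotated order of 27444 protein-coding genes, those not tested counting as not called. Of the 1522 called ones, 292 (19.2%) adjoined a gene called the same way. This share counts neighbours on either side and the same direction only. The 8.06% of annotated genes tested that were called, in either direction, is thus no reference for it. Of the 212 adjacent pairs of called genes, 161 had the same direction. Whether neighbours share calls more often than other genes was not tested. There were 25 runs of 3 or more neighbours, 16 lower and 9 higher in Or-1. The longest, on chromosome 5, held 5 genes higher in Or-1. It starts with AT5G45060, an NLR-type disease resistance gene, at 51.9, 56.8 and 55.1 CPM in Or-1 against 16.5, 16.3 and 17.7 in Rak-2. The phloem protein genes follow, PP2-A8 with 65.3, 71.0 and 66.0 against 0.0698, 0.0470 and 0 CPM, PP2-A6 with 103, 118 and 116 against 0, 0 and 0.0547, and PP2-A7 with 22.8, 16.9 and 12.8 against no count. The last, AT5G45095, had 28.8, 34.5 and 52.7 against 0.0698, 0 and 0 CPM. The first gene of the run thus kept a measurable level in Rak-2, while the other 4 were near or at the detection limit.

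The 3 runs of 4 genes were all lower in Or-1. The one on chromosome 1 held AT1G53950, AT1G53970 and AT1G53980, none of which had a count in Or-1 while Rak-2 had means of 2.398 ± 1.15, 1.87 ± 0.879 and 4.29 ± 1.36 CPM, and ended with GLIP3, a GDSL-type lipase, at 4.19, 2.98 and 1.41 against 38.1, 14.8 and 27.3 CPM. A run on chromosome 5 held AT5G18210, AT5G18220, AT5G18230 of the NOT2/NOT3/NOT5 family of transcription regulators, and the MYB-related gene MYR1, with log2 fold changes of -2.78, -1.63, -1.34 and -1.76. The other on chromosome 5 began with INV-E, an alkaline/neutral invertase that cleaves sucrose, at 19.7, 21.1 and 21.9 against 43.0, 44.1 and 46.5 CPM (log2 fold change -1.09, SE 0.11, FDR = 5.01e-05, edgeR). It went on with AT5G22520, which had no count in Or-1, AT5G22530 and AT5G22540. UBQ11, AT5G45510 and the NLR-like gene AT4G19500 also lay in runs of 3.

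Genes of nitrogen transport and assimilation were tested in 5 lists, which are read beside the 4.35% of all genes called higher and the 4.29% called lower. The high-affinity NO3- transporter gene NRT2.4 was higher in Or-1, with 2.98, 2.82 and 1.41 CPM against 0.209, 0.329 and 0 in Rak-2 (log2 fold change 3.66, SE 0.67, FDR = 0.00324, edgeR), at a low level in both and with 3, 7 and 0 counts in the Rak-2 libraries. NRT1:2, also named NPF4.6, a low-affinity NO3- transporter, was lower, with 74.9, 109.8 and 93.7 against 184, 197 and 187 CPM (log2 fold change -1.03, SE 0.14, FDR = 0.000363). Without Or-1 replicate 1 its change was -0.88, under the threshold. The other 9 of 11 tested genes of NO3- uptake were not called. Among them NRT2.1, the main inducible high-affinity transporter, had 941 against 1549 CPM (FDR = 0.133). The list had a median of -0.13, and of 0.11 without Or-1 replicate 3.

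Of 8 genes of NO3- reduction and its electron supply, 1 was higher and 1 lower (median -0.36). Without Rak-2 replicate 1 the median was 0.19 with 2 higher calls, and without Rak-2 replicate 3 there were 2 lower calls. G6PD2, a plastidic glucose-6-phosphate dehydrogenase of the oxidative pentose phosphate pathway, had 53.2, 53.0 and 51.8 CPM in Or-1 against 363, 226 and 146 in Rak-2 (log2 fold change -2.22, SE 0.27, FDR = 0.000184, edgeR). The 3 Or-1 libraries were within 2 CPM of each other and the Rak-2 libraries far above them and far apart. RFNR2, a root ferredoxin-NADP+ reductase that passes electrons to nitrite reduction, had 791, 829 and 1012 CPM against 547, 390.0 and 238 (log2 fold change 1.16, SE 0.29, FDR = 0.0187). That call was lost without Rak-2 replicate 2 (FDR = 0.056), without Rak-2 replicate 3 (log2 fold change 0.90) and without Or-1 replicate 3 (FDR = 0.0551), and with the NO3- libraries alone (FDR = 0.0728). The nitrate reductase genes NIA1 and NIA2 and the nitrite reductase gene NIR1 were not called, with log2 fold changes of -0.34, -0.37 and -0.45. None of 11 tested regulators of the NO3- response was called (median -0.27), and 1 was called lower without Rak-2 replicate 2 or Rak-2 replicate 3.

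AMT1;2, an NH4+ transporter of the endodermis and cortex, had 124, 185 and 242 CPM in Or-1 and 67.5, 85.5 and 67.6 in Rak-2 (log2 fold change 1.32, SE 0.21, FDR = 0.00146, edgeR). It was the 1 called gene among 5 NH4+ transporter genes tested. All 5 had a positive log2 fold change, and AMT1;1 and AMT1;3 had 0.08 and 0.18. Among 13 genes of NH4+ assimilation, ASN2, an asparagine synthetase, was lower, with 53.3, 55.2 and 49.2 against 115, 137 and 77.9 CPM (log2 fold change -1.07, SE 0.22, FDR = 0.00754), and its change was -0.89 without Rak-2 replicate 2. The list had 3 lower calls without Rak-2 replicate 1 and 2 without Or-1 replicate 3. The glutamine synthetase genes GLN1;1, GLN1;2, GLN1;3, GLN1;4 and GLN2 had 0.43, -0.53, -0.09, -0.95 and 0.07 and were not called. Neither ASN1 at -1.99 (FDR = 0.0913, edgeR) nor the glutamate dehydrogenase gene GDH3 at -1.57 (FDR = 0.125) was called. Of the 13 genes, 2 had a positive change.

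Several genes of indolic defence compounds were lower in Or-1. Of 10 tested genes of camalexin synthesis, the indolic phytoalexin of this species, 5 were lower in Or-1, beside 4.29% of all genes, and none higher, with a list median of -1.29 against -0.02 for all genes. CYP79B2, which makes the first indolic intermediate from tryptophan, had 138, 103 and 79.0 CPM in Or-1 and 330.0, 336 and 159 in Rak-2 (log2 fold change -1.36, SE 0.30, FDR = 0.0103, edgeR). PAD3, the last enzyme of the pathway, had 40.9, 34.1 and 29.1 against 106, 77.0 and 67.7 CPM (log2 fold change -1.27, SE 0.23, FDR = 0.00343). In both genes the highest Or-1 library lay below the lowest Rak-2 library. CYP71A13 had 0.165, 0.319 and 0.132 against 4.05, 7.84 and 3.50 CPM and CYP71A12 had 78.7, 70.0 and 38.4 against 200.1, 215 and 77.3. The latter pair are near-identical copies whose reads could be divided between them. NAC042, a transcription factor that activates the pathway, had 10.97, 7.02 and 4.19 against 23.65, 21.7 and 9.90 CPM. WRKY33, another activator, had 205 against 187 CPM and was not called.

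The number of camalexin genes called depended on the libraries. It was 3 without Rak-2 replicate 1, Rak-2 replicate 2, Or-1 replicate 2 or Or-1 replicate 3, and 6 without Rak-2 replicate 3 or Or-1 replicate 1. The NO3- libraries alone gave 2, of which PAD3 was 1, and none of these settings called a member higher. CYP71A12 (FDR = 0.0471) and NAC042 (FDR = 0.0273) were the calls lost most often. Of 9 tested genes of indole glucosinolate synthesis, MYB122, one of its activators, was lower, with 3.09, 6.06 and 4.81 against 14.6, 18.1 and 8.64 CPM (log2 fold change -1.56, SE 0.30, FDR = 0.0045), and the list median was -0.47. This 1 lower call among 9 is read beside 4.29% of all genes. There were 2 lower calls without Rak-2 replicate 3 or Or-1 replicate 2.

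Of 20 tested genes of aliphatic glucosinolates, which derive from methionine, 4 were lower in Or-1, beside 4.29% of all genes. None was higher, and the list median was 0.06. All 4 act in modification of the side chain, in which FMO GS-OX1 and FMO GS-OX5, with log2 fold changes of 0.70 and -0.32, and AOP1, with -0.59, were not called. The list had 2 lower calls with the NO3- libraries alone and without Rak-2 replicate 2, Or-1 replicate 1 or Or-1 replicate 2. AOP3, a 2-oxoglutarate-dependent dioxygenase of side-chain modification, had 2.92, 2.92 and 3.62 CPM in Or-1 and 15.2, 42.3 and 22.9 in Rak-2 (log2 fold change -3.08, SE 0.48, FDR = 0.00107, edgeR). The side-chain S-oxygenase genes FMO GS-OX2, FMO GS-OX3 and FMO GS-OX4 adjoin each other and formed one of the runs of 3. FMO GS-OX4 had 10.4, 9.36 and 8.30 against 28.7, 32.0 and 27.4 CPM (log2 fold change -1.65, SE 0.15, FDR = 2.09e-05), and FMO GS-OX3 had 2.43, 2.87 and 3.62 against 4.33, 9.25 and 5.14. FMO GS-OX2 had at most 0.110 CPM in Or-1 and 0.0698, 0.845 and 3.06 in Rak-2, which overlap. The call of FMO GS-OX3 ended without Rak-2 replicate 2 (FDR = 0.0996), Or-1 replicate 1 (0.107) or Or-1 replicate 2 (0.093), and that of FMO GS-OX2 without any library but Rak-2 replicate 1, with an FDR between 0.0622 and 0.168.

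Of 14 tested genes of glucosinolate turnover, 2 were higher, beside 4.35% of all genes. TGG2, a myrosinase that hydrolyses glucosinolates and is better known from leaves, had 3.69, 5.74 and 2.91 CPM in Or-1 and 0, 0 and 0.0547 in Rak-2, at least 19.7-fold higher. NSP3, a nitrile specifier protein that steers the products, had 4.08, 8.93 and 15.8 against 0.977, 1.64 and 4.65 CPM, with overlapping libraries, and its call (FDR = 0.0388) was lost without Rak-2 replicate 1 (0.0897), Rak-2 replicate 2 (0.141), Or-1 replicate 2 (0.079) or Or-1 replicate 3 (0.155).

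Genes of other specialised compounds were called in both directions, and are read beside the 4.35% of all genes called higher and 4.29% lower. Among 13 tested genes of the root triterpene clusters, CYP705A12 was higher, with 19.2, 19.1 and 19.5 CPM in Or-1 against 1.395, 3.01 and 1.09 in Rak-2 (log2 fold change 3.37, SE 0.42, FDR = 0.00022, edgeR), and so was AT5G47980, an acyltransferase of the HXXXD type, with 8.93, 8.45 and 11.96 against 3.21, 3.80 and 1.59. AT4G20210, annotated as a terpenoid cyclase, had 2.21, 3.14 and 4.59 CPM against no count, at least 15.8-fold higher. The other 3 tested terpene synthases were not called, and 1 of the list was called lower without Rak-2 replicate 1. In the phenylpropanoid pathway, which leads to lignin, 2 of 19 genes were lower and none higher. PAL3, a phenylalanine ammonia-lyase, had 1.49, 2.02 and 1.72 against 16.4, 22.1 and 12.7 CPM (log2 fold change -3.29, SE 0.31, FDR = 2.69e-05). LysoPL2, also known as caffeoyl shikimate esterase of lignin synthesis, had 69.0, 67.5 and 73.4 against 256, 281 and 256 CPM (log2 fold change -1.92, SE 0.09, FDR = 2.15e-07). None of 13 flavonoid genes was called.

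**Figure D3:**
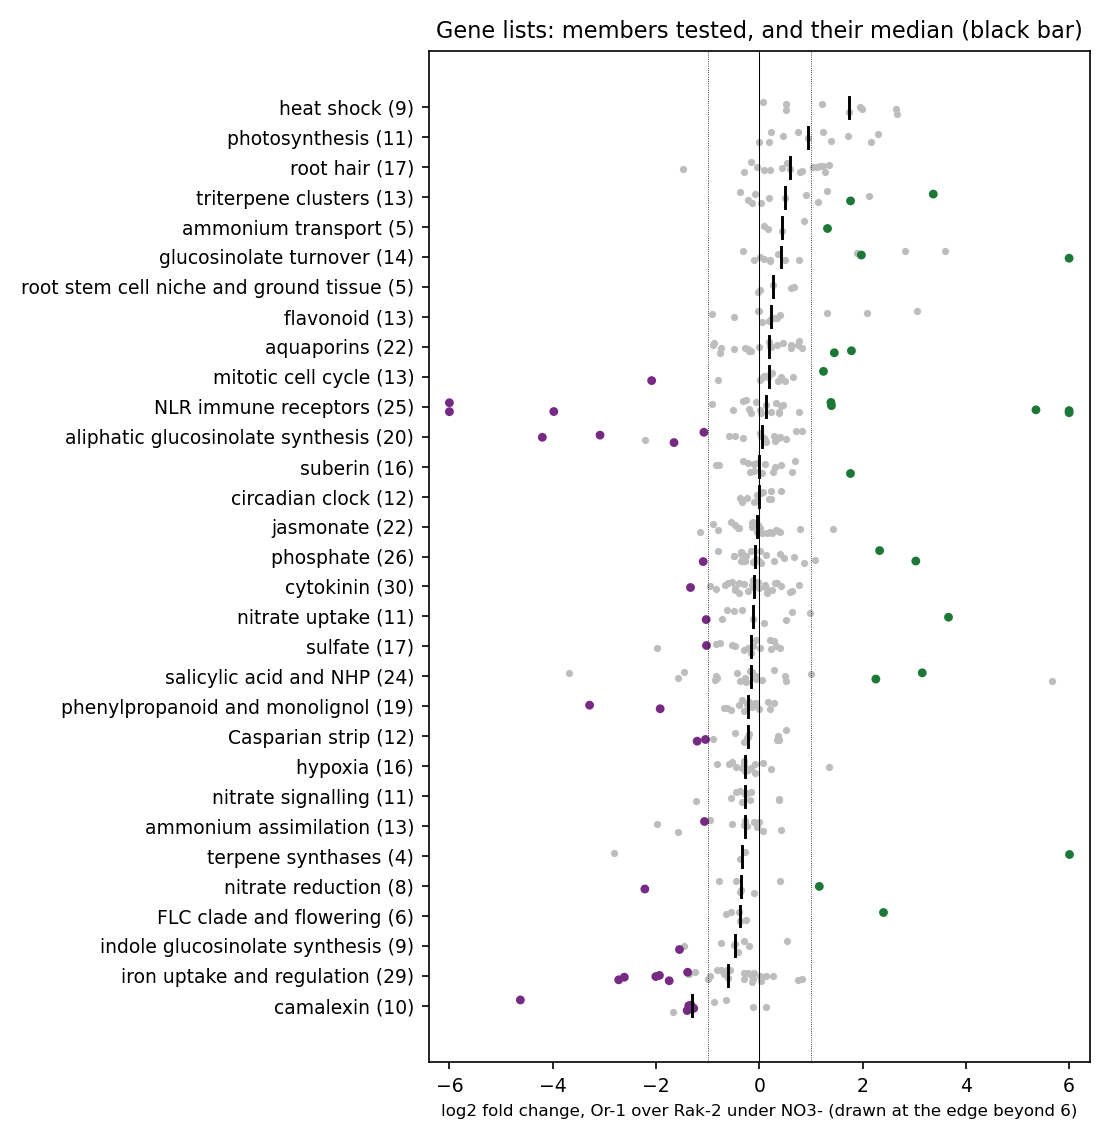
Log2 fold change (Or-1 over Rak-2 under NO3-) of the members tested of 31 gene lists, with the number tested in brackets, called members in green (higher) and purple (lower), the others in grey, and a black bar at the list median. Camalexin had the lowest median (-1.29) and heat shock the highest (1.73), though the latter was -0.15 without Or-1 replicate 1 and 7.21, with 2 called members, without Rak-2 replicate 1, and values beyond 6 are drawn at the edge.

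Of 29 tested genes of iron uptake and its regulation, 6 were lower in Or-1, beside 4.29% of all genes, and none higher (median -0.61). Without Rak-2 replicate 1 the median was -0.30, with 7 lower calls. They include all 4 genes of the small group of transcription factors that iron deficiency induces. The pair bHLH38 and bHLH39 had 7.50, 4.78 and 10.6 against 32.9, 35.3 and 23.7 CPM (log2 fold change -2.003, SE 0.29, FDR = 0.000606, edgeR) and 8.55, 12.9 and 17.61 against 44.2, 49.5 and 37.2 CPM (log2 fold change -1.74, SE 0.28, FDR = 0.00116). In neither gene did the ecotypes overlap. BHLH100 had 0.386, 1.33 and 1.01 against 5.09, 6.67 and 5.09 CPM, and BHLH101 had 0.110, 0.266 and 0.485 against 0.279, 2.68 and 2.898, with overlap. IRT1, the main iron transporter of the root surface, had 73.3, 59.4 and 59.0 against 402, 249.6 and 81.1 CPM (log2 fold change -1.93, SE 0.45, FDR = 0.0132), so that Rak-2 replicate 3 was close to the Or-1 libraries. NAS4, a nicotianamine synthase, had 5.35, 6.38 and 5.96 against 16.0, 17.0 and 13.2 CPM (log2 fold change -1.39, SE 0.17, FDR = 0.000237).

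FIT1, the master regulator of iron uptake, had 56.0 against 65.6 CPM, FRO2, the ferric reductase, 45.9 against 108 (FDR = 0.1), and the ferritin gene FER1 83.6 against 92.1, and none was called. The call of IRT1 was lost without Or-1 replicate 2 (FDR = 0.0557). That of BHLH100 was lost without Rak-2 replicate 2 (0.0557) or Or-1 replicate 1 (0.0565), and that of BHLH101 without any library but Rak-2 replicate 1, with an FDR between 0.0606 and 0.142. The list kept 4 to 7 lower calls after leaving out any one library.

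PHT1;2, a phosphate transporter gene, had 125, 110.5 and 179 CPM in Or-1 and 14.5, 26.3 and 9.68 in Rak-2 (log2 fold change 3.03, SE 0.34, FDR = 0.000108, edgeR). PHT1;1, its near-identical neighbour, had 459 against 648 CPM and was not called, and reads could be divided between these copies. PHT1;4, another transporter of the family, had 7.83, 9.57 and 5.65 against 1.81, 2.30 and 0.437 CPM (log2 fold change 2.33, SE 0.47, FDR = 0.00597). PAP17, an acid phosphatase, was lower at 5.94 ± 1.22 against 12.6 ± 4.49 CPM, a call lost without Rak-2 replicate 1 (log2 fold change -0.77), Or-1 replicate 2 (FDR = 0.052) or Or-1 replicate 3 (-0.98). The phosphate-status genes SPX1 and IPS1 were among the 23 of 26 not called, where 8.64% of all genes were called. Without Rak-2 replicate 3, 2 genes of the list were lower. SULTR1;2, the main sulfate uptake transporter, had 256 ± 54.3 against 521 ± 132 CPM (log2 fold change -1.02, SE 0.21, FDR = 0.00683). It fell under the fold threshold without Rak-2 replicate 1 (-0.95), Rak-2 replicate 2 (-0.89) or Or-1 replicate 1 (-0.86). The other 16 sulfate genes were not called, and the list had 2 lower calls without Or-1 replicate 2.

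Of 22 aquaporins tested, PIP2;4, of the plasma membrane, had 79.1, 68.3 and 70.7 CPM in Or-1 against 30.7, 34.1 and 14.8 in Rak-2 (FDR = 0.0215, edgeR). NLM1, also named NIP1;1, had 28.3, 27.1 and 21.6 against 10.1, 9.63 and 2.62 CPM (FDR = 0.0247). The call of PIP2;4 was lost without Rak-2 replicate 3 (FDR = 0.0511) or Or-1 replicate 1 (0.0533), and that of NLM1 without Or-1 replicate 1 (0.0598) or Or-1 replicate 2 (0.0675). These were the 2 higher calls of the list, beside 4.35% of all genes. No aquaporin was called lower in the main fit. There was 1 lower call without Rak-2 replicate 1, without Or-1 replicate 3, without both replicates 3 and with limma voom.

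Immune receptor genes were called in both directions. Of 25 listed NLR genes, the intracellular receptors of pathogen effectors, 5 were higher and 3 lower in Or-1, beside 4.35% and 4.29% of all genes, and the list median was 0.14. The NO3- libraries alone gave 1 lower call. AT4G19500 had 22.3, 25.1 and 31.9 CPM in Or-1 and no count in Rak-2, at least 127-fold higher, and its neighbour AT4G19510 had 30.5, 36.0 and 36.9 against 0.209, 0.235 and 0.273 CPM. RRS1, a receptor with a transcription factor domain, had 20.6, 22.3 and 23.3 against 7.12, 7.61 and 10.3 CPM (log2 fold change 1.398, SE 0.20, FDR = 0.000517, edgeR), and RLM3 had 4.91, 4.25 and 3.27 against 0.140, 0 and 0.164. On the other side AT5G41750 had no count in Or-1 and 16.7, 8.97 and 7.05 CPM in Rak-2, at least 65.9-fold lower, and RLM1 had no count against 0.349, 1.97 and 2.52 CPM. RFL1 and RPP13 were called at low levels, 2.25 against 0.865 and 0.0294 against 0.606 CPM. The call of RFL1 ended without any library but Rak-2 replicate 3 (FDR from 0.053 to 0.146), and that of RPP13 without Rak-2 replicate 2 (0.0709), Rak-2 replicate 3 (0.0596), Or-1 replicate 1 (0.0906) or Or-1 replicate 2 (0.0998). Among all 100 tested genes annotated as NLR-type, 15 were higher and 17 lower, 32% against the 8.64% of all genes. Of the 15 higher, 7 were at the detection limit in Rak-2, and of the 17 lower, 9 were in Or-1. Such genes could pass the filter on low counts through the other ecotype alone. This family and those named next were picked after their values had been seen.

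In the list of salicylic acid and N-hydroxypipecolic acid, an immune signal, 2 of 24 genes were higher, beside 4.35% of all genes, and none lower. Without Rak-2 replicate 1, 1 was lower. AT5G52810, of the NAD(P)-binding Rossmann-fold superfamily, had 26.4, 29.9 and 29.8 CPM in Or-1 against 2.65, 3.33 and 3.61 in Rak-2 (log2 fold change 3.16, SE 0.14, FDR = 1.26e-07, edgeR). ALD1, the aminotransferase that starts pipecolic acid synthesis, had 3.91, 2.71 and 6.44 against 0.279, 0.892 and 1.48 CPM (log2 fold change 2.26, SE 0.49, FDR = 0.00894). ICS1, the isochorismate synthase of salicylic acid synthesis, had 16.5 against 18.6 CPM and was not called, nor was any of 22 jasmonate genes, of which 1 was lower without Rak-2 replicate 3. Glutathione S-transferases, which conjugate reactive and toxic compounds, were called in 15 of 38, 39.5% against 8.64% of all genes, 3 higher (GSTU26, GSTZ2 and GSTU9) and 12 lower. GSTF14 had 257, 397 and 605 CPM in Or-1 and 1282, 1846 and 1194 in Rak-2 (log2 fold change -1.78, SE 0.27, FDR = 0.000966). GSTF2 had 407, 463 and 359 against 899.8, 1145 and 1046 CPM (log2 fold change -1.33, SE 0.17, FDR = 0.000301) and GSTF7 had 269.9, 206 and 169 against 808, 696 and 390.4. GSTF2 and GSTF7 have near-identical copies, between which reads could be divided. Ribosomal protein genes were called in 7.69% of 351, close to the share over all genes. Jacalin lectins were called in 40.7% of 27, cytochromes P450 in 16.8% of 143 and F-box proteins in 15.3% of 177. For protein kinases it was 7.83% of 383 and for class III peroxidases 6.67% of 60.

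FRI, an activator of the flowering repressor FLC, was higher in Or-1, with 17.97, 18.1 and 19.5 against 3.77, 4.27 and 2.52 CPM (log2 fold change 2.39, SE 0.18, FDR = 6.42e-06, edgeR), and the other 5 tested genes of that list were not called. ABCG14, which loads cytokinin for transport to the shoot, was lower, with 67.1, 70.3 and 55.3 against 184, 185 and 119 CPM (log2 fold change -1.34, SE 0.18, FDR = 0.000359), the 1 call among 30 cytokinin genes. In the endodermis, MYB36, the activator of Casparian strip formation, had 6.78, 8.61 and 10.5 against 18.6, 19.6 and 15.04 CPM (log2 fold change -1.04, SE 0.17, FDR = 0.00161) and UCC1, a uclacyanin, 14.3, 17.0 and 19.4 against 42.6, 46.1 and 28.1. The other 10 of 12 Casparian strip genes were not called, and MYB36 fell under the fold threshold without Rak-2 replicate 2 (-0.97) or Or-1 replicate 1 (-0.88). MYB41, a regulator of suberin, was higher at 1.99 ± 0.645 against 0.592 ± 0.148 CPM. Of 13 mitotic genes, CDKB1;2, a plant-specific cyclin-dependent kinase, was lower, with 1.49, 2.29 and 2.56 against 5.51, 9.72 and 11.7 CPM, and SYP111, the syntaxin of the cell plate, higher, with 42.3, 50.9 and 49.5 against 12.5, 24.1 and 23.5. Without Rak-2 replicate 1 the log2 fold change of SYP111 was 0.99 and 2 genes of the list were lower. The counts of these lists are read beside the 4.35% of all genes called higher and 4.29% lower.

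In the main fit, no member was called of 12 circadian clock genes, 16 hypoxia genes or 17 root hair genes. Nor was any of 5 genes of the root stem cell niche and ground tissue. Over all genes 8.64% were called, a share at which lists this short can hold no call. The root hair median was 0.60, with 13 of 17 genes positive. It lay between 0.16 and 1.41 after leaving out any one NO3- library. Limma voom called 1 hypoxia gene and 1 root hair gene higher. The fit without both replicates 1 called 1 hypoxia gene higher, and each fit with the replicate block 1 root hair gene. Without Rak-2 replicate 1, 1 hypoxia gene and 1 root hair gene were called higher. The hypoxia median then moved from -0.27 to 0.41. The stem cell niche list, with SHR, SCR and PLT1, summed to between 102.97 and 186 CPM in all 6 libraries, and at least 12 of 13 Casparian strip genes were above 3 counts in each, so that markers of the labelled tissue were present. Photosynthesis genes, which a root library should lack, were present and uneven. Summed over 12 listed genes they reached 712, 294 and 927 CPM in Or-1 and 124, 192 and 621 in Rak-2. All 11 that were tested had a positive log2 fold change (median 0.95) and none was called, and the libraries of the ecotypes overlapped. Of these genes, 2 were at 3 counts or fewer in Rak-2 replicates 1 and 3, and none in the other libraries. Heat shock genes summed to 521, 178 and 65.8 CPM in Or-1 and 295, 60.02 and 81.8 in Rak-2. All 9 were positive (median 1.73) with none called, and in both ecotypes replicate 1 stood highest. Without Or-1 replicate 1 the median was -0.15, and without Rak-2 replicate 1 it was 7.21 with 2 called higher, as were 2 with the replicate block on the NO3- libraries alone. Replicate 1 was also highest in root hair genes, with 541, 342 and 299 CPM in Or-1 and 517, 271 and 103 in Rak-2. The part of these differences between libraries in the calls above was not tested. Without both replicates 1 the calls numbered 749 higher and 749 lower, and without both replicates 3 they numbered 699 and 766. The camalexin list kept 5 lower calls in each of these fits, and the iron list 5 and 6.

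**Figure D4:**
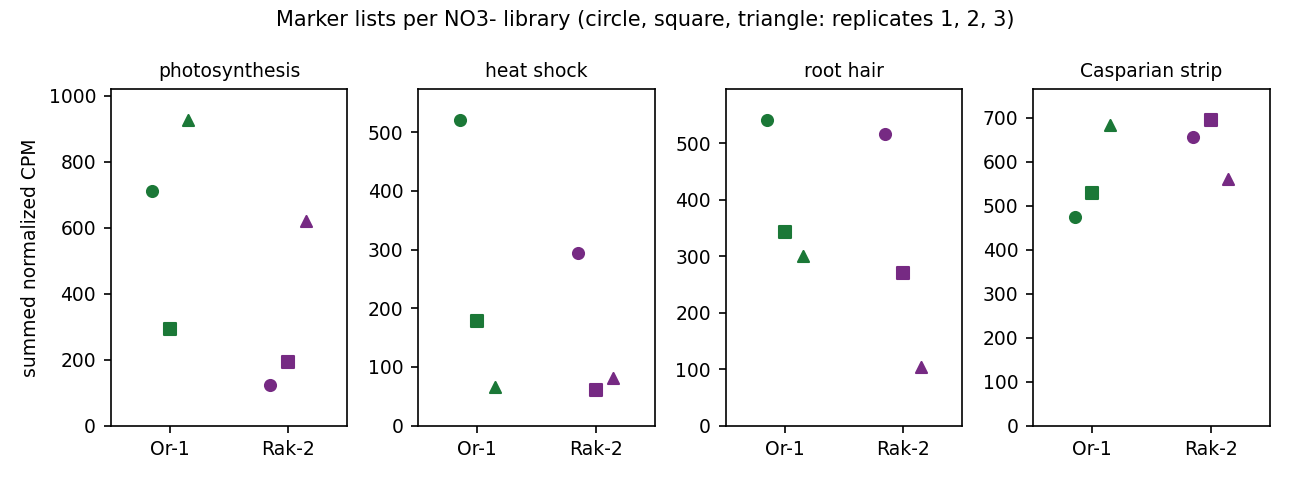
Summed normalized CPM of 4 marker lists in each NO3- library, with a separate vertical axis from 0 for each list, Or-1 in green and Rak-2 in purple, and circle, square and triangle for replicates 1, 2 and 3. Replicate 1 is highest in heat shock and root hair genes in both ecotypes, and the ecotypes overlap in all 4 lists.

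Most NO3- calls recurred in the separate libraries taken under NH4+. There, 2359 genes were called (12.2% of those tested, 6.55% higher and 5.66% lower), and 1144 of the 1670 NO3- calls were called the same way, 68.5% of the NO3- calls and 48.5% of the NH4+ calls. Of the robust NO3- calls, 838 of 1014 (82.6%) recurred. The log2 fold change had the same sign in 93.1% of the NO3- calls and in 61.5% of all genes tested. CYP705A8, the PP2-A genes, ADR1-L3, HSD3, UBQ11, FRI, PAL3, LysoPL2, AOP3, PHT1;2 and AMT1;2 were among those called the same way. AMT1;2, for example, had 244 against 106 CPM under NH4+ (log2 fold change 1.199, FDR = 0.0021, edgeR). Another 495 NO3- calls were not called under NH4+. They include AT4G33720 (log2 fold change -0.23 under NH4+) and the nitrogen genes NRT2.4, NRT1:2, G6PD2 and ASN2. In none of these named genes was the difference between the nitrogen sources called.

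**Figure D5:**
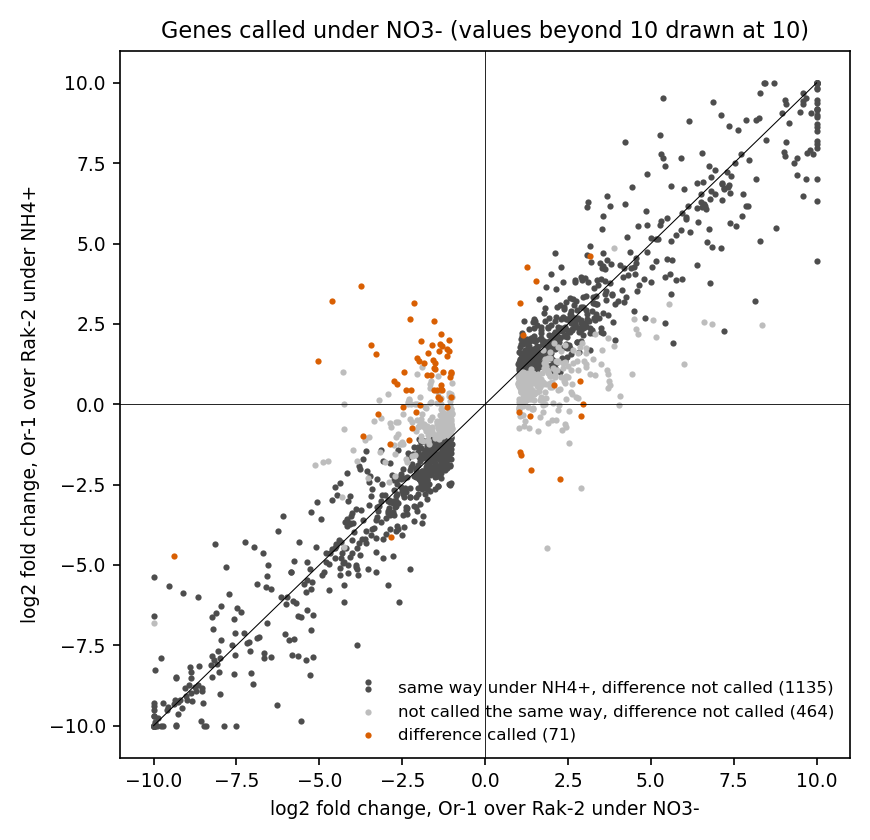
Log2 fold change (Or-1 over Rak-2) under NO3- (horizontal) and under NH4+ (vertical) of the 1670 genes called under NO3-, with the 71 genes whose difference between the nitrogen sources was called in orange. Most points lie along the diagonal, and most orange points lie at the upper left, lower in Or-1 under NO3- and higher under NH4+.

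A change of direction was seen in 31 genes, called under both nitrogen sources in opposite directions. In 27 of them Or-1 was lower under NO3- and higher under NH4+. Of the 31, 11 were robust under NO3-, beside 1014 of all 1670 NO3- calls. The difference between the nitrogen sources was called in 71 of the 1670 NO3- calls and in 1.23% of all genes tested. It was called in all 31. Opposite calls already place the difference beyond its fold threshold in the same fit, so this is no separate support. All 5 camalexin genes named above were in this set. Of these, PAD3 and CYP71A13 were robust. With the NO3- libraries alone, the NO3- calls of CYP79B2 (FDR = 0.0565, edgeR), CYP71A12 (0.114) and NAC042 (0.148) were lost. PAD3 had 34.7 against 83.5 CPM under NO3- and 122 against 61.0 under NH4+, and CYP79B2 had 107 against 275 and 619 against 167. NAC042 had 7.39 against 18.4 and 120.1 against 26.5 CPM. MYB122, GSTF7, GSTF3, GSTU11 and GSTU12 were in the same set, as was DIR5, a dirigent protein, with 11.4 against 54.6 CPM under NO3- and 155 against 24.9 under NH4+. NIT4, a nitrilase that detoxifies cyanoalanine, had 0.0625 against 2.42 and 10.97 against 4.28 CPM. ALD1 was 1 of the 4 with the reverse pattern, with 4.36 against 0.883 CPM under NO3- and 102 against 504 under NH4+. Its NO3- call was lost with the NO3- libraries alone (FDR = 0.0742, edgeR). The iron genes were not in this set. IRT1 had 9.48 against 13.1 CPM under NH4+ and was not called there, and the difference of its change between the nitrogen sources was not called either (FDR = 0.25).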

How the data were processed

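RNA from roots was sequenced from 12 samples, of which 6 enter the comparison directly. The authors deposited whole-number counts of reads per gene and library without normalization. The aligner, counting program and genome build are not given in the sources used here. A gene length deposited beside the counts was not used for tests, and 3 deposited tables of the authors' own fold changes and p-values were not used. Groups and replicate numbers come from the sample titles. Identifiers were matched to the RefSeq annotation of TAIR10.1 (25670 of 26568) for names, products and neighbours only, and no sequence or coordinate is printed since neither ecotype's genome was given.

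R 4.3.3 with edgeR 4.0.16 was used. Genes passed filterByExpr (group minimum 10 counts, total 15), libraries were scaled by TMM, and the 12 libraries were fitted with 1 coefficient per group and tested by the quasi-likelihood F test with Benjamini-Hochberg adjustment. A fold against an ecotype with at most 3 counts in every library is a lower bound, from 3 counts in its smallest scaled library, and covers counting error only. Alternatives used DESeq2 1.42.0, limma 3.58.1, other scalings, filters and sample sets, and the steps were tested on simulated data.

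The genes named are the 12 robust annotated genes with the largest change in each direction and at least 5 CPM in the higher ecotype, the 6 robust genes with the largest difference of CPM in each direction, the called members of 31 gene lists and the members of the longest runs. Of 530 list entries, 494 carry a name that the annotation holds, and the others are named by locus. Other genes named, in the lists and in the set of opposite calls, were chosen after their values were seen. The members and lists were chosen with earlier results of these data known.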

Additional observations from a re-analysis of the deposited data

Results flagged for a closer look

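In 11 of the 100 genes named by rule, the difference between the ecotypes itself differed between NO3- and NH4+ by edgeR's interaction contrast (log2 fold change under NO3- minus that under NH4+). It was -7.84 for CYP71A13, -3.25 for CYP79B2, -3.07 for CYP71A12, -2.27 for PAD3, -3.50 for NAC042 and -2.95 for MYB122, in which Or-1 was lower under NO3- and higher under NH4+. It was -2.69 for GSTF7 with the same pattern, and -1.92 for GSTF2, which was lower in Or-1 under NO3- and not called under NH4+. GLIP3, with -2.92, was also lower under NO3- and not called under NH4+. AT5G52810, with -1.46, was higher in Or-1 on both nitrogen sources and more so under NH4+. ALD1, with 4.57, was higher in Or-1 under NO3- and lower under NH4+. The adjusted p of these 11 contrasts lay between 0.00677 and 0.0343. Other genes in the text also had a called difference, such as DIR5 and the nitrate reductase genes. It was -2.29 for NIA1 and -2.94 for NIA2 (FDR = 0.0343 for each, edgeR). Neither was called under NO3-. Under NH4+ both were called higher in Or-1, with 643 against 166 CPM for NIA1 and 1521 against 257 for NIA2.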

How the results depend on the processing

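Of the alternatives, only edgeR's glmTreat, which tests each change against the fold threshold itself, moved the count of all higher, all lower or all recurring calls by more than 1.5 times. Counts within single gene lists are small and moved by more in several settings, as given beside them. It called 390 genes higher and 400 lower in Or-1, and 615 NO3- calls recurred under NH4+. The other scalings, filters, tests and sets of genes gave between 742 and 966 higher and between 760 and 1022 lower, and with the NO3- libraries alone 581 and 587. Leaving out any one NO3- library gave 715 to 864 higher, 696 to 880 lower and 1010 to 1243 calls that recurred. Leaving out both replicates 1, or both replicates 3, was added after seeing the data. None of the 100 named genes reversed in an alternative that gave it a value. Of the 95 with a value under all 21 alternatives, 60 kept the call in each. The other 5, namely 1 newly assembled gene, RLM1, RPP13, BHLH101 and FMO GS-OX2, were not tested in at least 1 alternative. Over the 100, 24 lost the call in an alternative other than glmTreat. With the NO3- libraries alone the calls of RFNR2, CYP79B2, CYP71A12, NAC042, FMO GS-OX3, NSP3, RFL1, ALD1, PHT1;4, PAP17, IRT1, SULTR1;2, NLM1 and MYB41 were lost (FDR 0.0514 to 0.164).

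The replicate number as a block gave 944 higher and 914 lower with all 12 libraries, with 1244 recurring calls, and 787 and 758 with the NO3- libraries alone. Deviations of same-numbered libraries correlated at 0.49, 0.05 and 0.54 for numbers 1, 2 and 3. Pairs of different numbers lay between -0.58 and 0.12, so numbers 1 and 3 stood above all of them. The labels do not say that the numbers pair the samples, and the main fit did not use them as pairs. Or-1 replicate 2 correlated best with Rak-2 replicate 1 (0.12). Among the named genes, the block with all 12 libraries ended the calls of CYP71A12 and BHLH101, which other settings also ended.

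Low levels limit the result. A gene at 3 counts or fewer lay at or below 0.165 CPM in Or-1 or 0.209 CPM in Rak-2. The main fit took its spread from all 12 libraries. The biological coefficient of variation was 0.343 in Rak-2 under NO3- but 0.158 under NH4+. The p-values of the main fit could therefore be too small for the NO3- comparison. With the NO3- libraries alone 1168 genes were called in place of 1670, and 69.2% of the main calls were kept. That fit also rests on fewer libraries, and the part of the drop due to spread was not tested.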
